A study of Homo sapiens with 6 samples.

Results

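Muscle differentiation and sarcomere genes were examined for binding of DDX5, a DEAD-box RNA helicase that takes part in splicing and serves as a transcriptional coactivator, among others of the myogenic factor MYOD1. The set held 39 listed genes of 20046 protein-coding genes in GENCODE v44, and a peak was given to a gene when its summit lay inside the gene body. RNA was immunoprecipitated from nuclei of RH30 cells and sequenced; RH30 is an established line of human alveolar rhabdomyosarcoma, a tumour with muscle features, and is positive for the PAX3-FOXO1 gene fusion. Of 6 samples, 3 were DDX5_IP samples, made with a DDX5 antibody, and 3 were INPUT samples, made with no antibody. All came from this 1 line, without a further treatment in the labels, and the labels call the samples of each kind biological replicates. A peak list of each DDX5_IP sample was used, and the INPUT samples were not analysed here.

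Skeletal muscle contracts when myosin motors of the thick filament pull on actin of the thin filament. Calcium released through the ryanodine receptor binds troponin, tropomyosin shifts on actin, and the myosin heads can attach. Titin and nebulin are giant proteins, of which titin runs from Z-disc to M-line and nebulin along the thin filament. During development muscle replaces embryonic and fetal forms of myosin, actin, troponin and the acetylcholine receptor with adult ones. Rhabdomyosarcoma cells carry muscle proteins but do not complete this programme, and desmin and myogenin are used as its diagnostic markers.

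The lists held 23715, 23651 and 45832 peaks in replicates 1, 2 and 3, and replicate 3 was the longest. Of these peaks 128, 157 and 477 had summits in the muscle genes. A peak could be counted in more than 1 gene where gene records overlap, and the unstranded libraries do not show which strand the RNA came from. Sequencing depth is unknown from these files. Each peak carries the authors' fold enrichment and −log10 q value at its summit; which library the calls were made against is not given in the sources used here, so a fold is not read as enrichment over INPUT, and abundance of the RNA may enter it. Absence of a peak is likewise not absence of binding or of the transcript. Of 10 markers of this tumour type, MYOD1, MYOG, DES, CHRNA1, FGFR4, PAX3 and FOXO1 had a peak in every list, CHRNG had one in 2 lists, and MYH3 and MYH8 had none. Over all protein-coding genes 25.8% had a peak in every list and 51.7% in at least 1. All FOXO1 and CHRNA1 summits also lay in another gene record.

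Peaks of all lists overlapped over coding exons of several muscle genes, and the genome sequence at these places is shown here because it holds or adjoins the summits, which lay within 33 bp of each other in XIRP1, TTN, TPM1 and RYR1 and further apart in DES (62 bp), CHRND (96 bp) and NEB (127 bp). Of the genes with a region whose summit was coding in every list, 7 are shown, each by the region with the highest mean fold. Printed is the stretch common to the intervals of the lists, cut to the coding part of the exon and to at most 150 bases. Capitals mark 5 bases on either side of each list's summit; adjoining summits give 1 longer run of capitals. Sequences are from GRCh38 in the sense of the gene, 5′ to 3′. The DES stretch lies in exon 1 (chr2:219418917-219419040, plus strand), that of XIRP1 in exon 2 (chr3:39185496-39185645, minus strand), that of TTN in exon 347 (chr2:178543248-178543397, minus strand) and that of CHRND in exon 6 (chr2:232528914-232528971, plus strand). The NEB stretch lies in exon 93 (chr2:151594043-151594124, minus strand), that of TPM1 in exon 1 (chr15:63042830-63042943, plus strand) and that of RYR1 in exon 50 (chr19:38504265-38504355, plus strand). In NEB and CHRND 1 of the 3 summits fell outside the printed stretch. The NEB region has 2 further copies in NEB at 100% identity over 279 bp, so its reads cannot be assigned to exon 93 by sequence alone. The TPM1 stretch opens with the start codon, where the cut to coding sequence begins.
DES: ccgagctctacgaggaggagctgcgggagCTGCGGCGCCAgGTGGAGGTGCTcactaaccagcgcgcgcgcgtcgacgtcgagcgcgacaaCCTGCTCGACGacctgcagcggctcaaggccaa
XIRP1: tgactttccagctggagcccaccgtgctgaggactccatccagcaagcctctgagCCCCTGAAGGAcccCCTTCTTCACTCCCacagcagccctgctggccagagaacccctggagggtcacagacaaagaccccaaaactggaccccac
TTN: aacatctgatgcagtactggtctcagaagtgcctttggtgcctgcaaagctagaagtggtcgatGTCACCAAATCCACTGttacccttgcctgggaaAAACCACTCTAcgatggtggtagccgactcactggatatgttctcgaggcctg
CHRND: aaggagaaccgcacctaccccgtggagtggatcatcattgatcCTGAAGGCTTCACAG
NEB: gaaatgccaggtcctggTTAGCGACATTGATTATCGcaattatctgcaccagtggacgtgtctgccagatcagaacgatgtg
TPM1: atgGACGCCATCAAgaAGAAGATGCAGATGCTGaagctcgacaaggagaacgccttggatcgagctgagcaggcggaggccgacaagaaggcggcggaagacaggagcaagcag
RYR1: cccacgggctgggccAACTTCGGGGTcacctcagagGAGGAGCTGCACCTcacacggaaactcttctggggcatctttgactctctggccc

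Of the 39 muscle genes, 18 (46.2%) had a peak in every list, against 25.8% of all protein-coding genes. A peak in at least 1 list was found in 29 (74.4%), against 51.7%. Of those 29 genes 62.1% were in every list, against 49.9% of all protein-coding genes with a peak. With q under 1e-05 required in every list, 12 genes (30.8%) were left, against 15.1%, and with a fold of at least 4 in every list 5 were left (12.8%), against 4.22%. These 5 were TTN, NEB, XIRP1, BIN1 and SGCA. Separate lists held peaks in 20, 22 and 28 of the muscle genes. The 39 genes were chosen with earlier results of these data known, so these shares are no test of an excess. Of 75 further muscle genes outside the set, 28% had a peak in every list.

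By role, none of 8 genes of myosin chains and their chaperone had a peak in every list, whereas 9 of 16 thin filament genes, 2 of 5 genes of titin, the Z-disc and neighbouring structures, and 7 of 10 genes of the membrane, calcium release and synapse had one. Among 10 genes listed as embryonic and fetal forms 3 had a peak in every list (ACTC1, TNNT2 and XIRP1) and 8 in at least 1. Among 12 listed as adult forms the counts were 3 (TNNI1, TNNT1 and RYR1) and 5. The stage shares in every list, 30.0% and 25.0%, were near the 25.8% of all protein-coding genes, and the role shares were 0%, 56.2%, 40.0% and 70.0%. Slow forms were placed with the adult ones, although developing muscle also makes some of them. The embryonic and fetal list also holds genes that are not forms replaced by an adult one, XIRP1 among them, so its share depends on that placement. These are counts over lists chosen with results known, and no difference between the lists was tested.

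**Figure D1:**
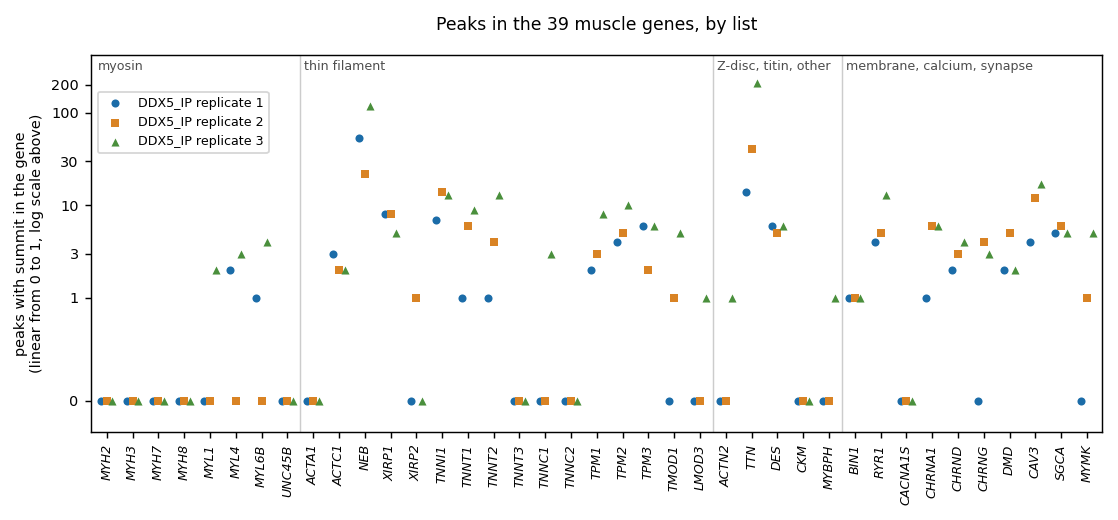
The number of peaks with a summit in each of the 39 muscle genes is plotted for each DDX5_IP list, on an axis that is linear from 0 to 1 and logarithmic above, with genes grouped by role. Points at 0 in every list mark 10 genes, while TTN and NEB reach 211 and 118 peaks in replicate 3.

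Myosin heavy chains are the motors of the thick filament, and none of the 4 listed ones held a peak. MYH3 (embryonic), MYH8 (perinatal), MYH2 (fast adult) and MYH7 (slow and cardiac) all had 0 peaks in every list, as did UNC45B, a chaperone that folds myosin. The 10 genes without a peak in any list had a median of 5853 bp of exon, against 6664.5 bp in the 18 genes found in every list. The median was 3259 bp in genes found in 2 lists and 3450.5 bp in those found in 1 list. Over all protein-coding genes it was 4416 bp. Any part of length was not tested. Light chains, which stabilise the lever arm of the motor, did appear. MYL4, the embryonic and atrial essential light chain, had 2, 0 and 3 peaks in replicates 1, 2 and 3; its intervals in replicates 1 and 3 overlapped in exon 3 (folds of 4.51 and 2.94) and in exon 7, the 3′ UTR (2.47 and 2.59). MYL6B had 1, 0 and 4 peaks, of which those over exon 5 overlapped (2.31 and 1.88). All MYL6B summits also lay inside MYL6B-AS1, and the replicate 3 peak of exon 4 has a 98 bp match of 97.959% identity in transcripts of MYL6, its non-muscle neighbour. MYL1, the fast essential light chain, had 2 peaks in replicate 3 and 0 in the other lists. No light chain was thus found in all lists.

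Actin forms the thin filament, and of its 2 muscle forms in the set 1 held peaks. ACTC1, cardiac actin, is made in embryonic skeletal muscle before ACTA1, the skeletal form. ACTC1 (chr15:34790107-34795589, minus strand) had 3, 2 and 2 peaks, while ACTA1 had 0 in every list. One ACTC1 region covered exon 2 and the start of intron 2 with folds of 2.09, 3.34 and 2.55, and the other exon 3 with 1.63, 2.76 and 1.72. The exon 3 summits lay within 15 bp of each other. All ACTC1 summits also fell in the overlapping record of the noncoding RNA GJD2-DT, and none passed q under 1e-05 in replicate 1.

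Among proteins that set thin filament length or bind actin, XIRP1 had the highest mean fold. XIRP1 (Xin, an actin-binding repeat protein of adhesion sites in striated muscle; chr3:39183210-39192596, minus strand) had 8, 8 and 5 peaks. Its best peak, that with the highest −log10 q, had a fold of 6.66, 7.24 and 4.64, with a mean of 6.18 ± 1.36 (SD, n = 3). Regions of every list covered exon 1, in the 5′ UTR, with folds of 6.66, 5.83 and 5.14 and summits within 6 bp, the coding part of exon 2 with 3.11, 7.24 and 4.64 and again with 3.15, 2.68 and 4.03, and the 3′ UTR with 2.48, 3.12 and 3.14. Of 6 XIRP1 regions 4 were thus found in every list, at separate places between the first exon and the 3′ UTR. No XIRP1 summit lay in another gene. XIRP2, its larger relative, had 1 peak, in replicate 2 (fold 3.33, exon 11). TMOD1, which caps the pointed end of actin filaments, had 0, 1 and 5 peaks with best folds of 5.49 in replicate 2 and 5.30 in replicate 3. LMOD3, which nucleates actin filaments, had a single peak, in replicate 3 (fold 3.25, coding).

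**Figure D2:**
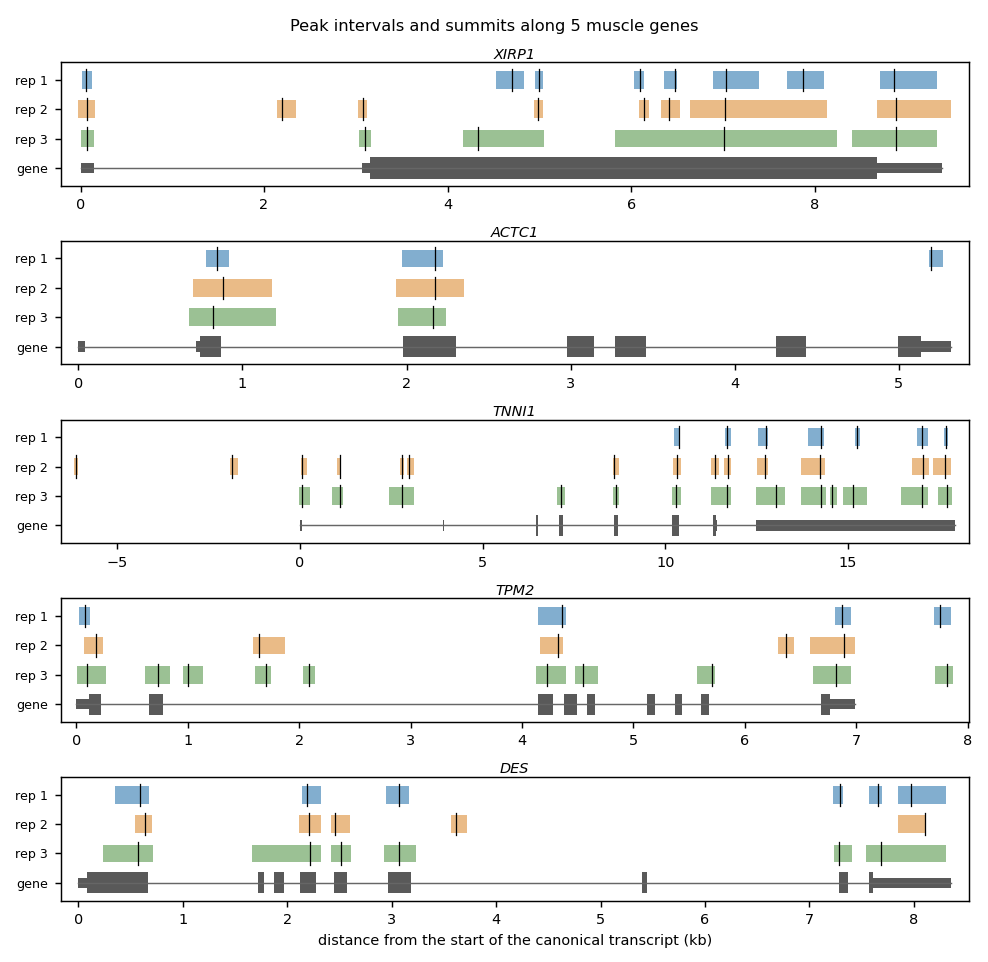
Peak intervals (bars) and summits (black ticks) of each DDX5_IP list are drawn above the canonical transcript of XIRP1, ACTC1, TNNI1, TPM2 and DES against the distance from its start in kb, with thick boxes for coding and thin boxes for untranslated exons. In XIRP1 all lists have a summit in exon 1, and in TNNI1 intervals of all lists line up along the long last exon.

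Troponin is the calcium switch of the thin filament, and 4 of the 6 listed troponin genes held peaks. TNNI1, slow skeletal troponin I (chr1:201403784-201429866, minus strand), had 7, 14 and 13 peaks, with best folds of 3.25, 2.89 and 4.49 (3.54 ± 0.837, SD, n = 3). Of these peaks 6, 5 and 7 lay in the 3′ UTR, and 6 TNNI1 regions were found in every list, more than in any other member except NEB. A 3′ UTR region at chr1:201407318-201408022 had folds of 3.25, 2.89 and 2.54 with summits within 16 bp. TNNT1, slow troponin T, had 1, 6 and 9 peaks and best folds of 1.72, 6.04 and 4.09, and the best peak was intronic in each list. Introns held 1, 5 and 4 of the TNNT1 peaks, and no TNNT1 region was common to all lists. TNNT2, cardiac troponin T, which fetal skeletal muscle also makes, had 1, 4 and 13 peaks with best folds of 1.73, 4.64 and 3.02. Its 1 region of every list reached into the last exon (1.73, 2.27 and 2.31), and all its summits also lay in an unnamed overlapping record, ENSG00000286600. TNNC1, slow and cardiac troponin C, had 3 peaks in replicate 3 and 0 in the others. Fast troponin T (TNNT3) and fast troponin C (TNNC2) had 0 in every list, as did cardiac troponin I (TNNI3), which is outside the set.

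Tropomyosins lie along actin and carry the troponin signal, and all 3 listed genes had peaks in every list. TPM1 had 2, 3 and 8 peaks with best folds of 2.30, 3.12 and 6.70. Exon 1 was covered in every list with folds of 1.94, 3.12 and 3.20 and summits within 19 bp, just past the start codon, as was a stretch over exon 2 and the start of intron 2, which other transcripts code for (2.30, 2.67 and 1.82, summits within 66 bp). The TPM1 peak with a fold of 6.70 was found in replicate 3 only, in an exon that the canonical transcript skips and that TPM1-AS overlaps. TPM2 had 4, 5 and 10 peaks with best folds of 3.48, 5.14 and 8.15 (5.59 ± 2.37, SD, n = 3). Its exon 1 was covered in every list (3.48, 2.89 and 8.15), as was its 3′ UTR (2.71, 5.14 and 3.13). TPM3 had 6, 2 and 6 peaks with best folds of 2.05, 2.01 and 4.12. Both TPM3 regions of every list lay in 3′ UTRs outside the canonical transcript, and 1 of them matches the pseudogene TPM3P5 at 97.674% over 86 bp.

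TTN and NEB held more peaks than all other members together in 2 of the 3 lists. Titin (TTN, chr2:178525989-178830802, minus strand), the molecular spring from Z-disc to M-line, had 14, 41 and 211 peaks. Nebulin (NEB, chr2:151485336-151734487, minus strand), the ruler along the thin filament, had 54, 22 and 118. Together they made up 53.1%, 40.1% and 69% of the peaks in the muscle genes. Among all protein-coding genes ordered by number of peaks, TTN ranked 175, 6 and 1 and NEB ranked 4, 33 and 2. The order of the 2 genes was thus not the same in each list, with NEB ahead in replicate 1 and TTN ahead in replicates 2 and 3. The spliced canonical transcripts are 109224 bp long in TTN and 26191 bp in NEB, and any part of length in these counts was not tested.

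TTN had best folds of 5.99, 4.77 and 4.32, with a mean of 5.03 ± 0.864 (SD, n = 3), all over coding exons. In replicate 1 the TTN peaks were crowded toward the 3′ end, with 85.7% of the exonic summits past the midpoint of the spliced transcript, against 61.3% in replicate 2 and 44.1% in replicate 3. Of 220 merged TTN regions 4 were found in every list: 2 in exon 358, 1 in exon 347 and 1 in exon 287. The exon 347 region had folds of 5.99, 2.49 and 3.28, with summits within 33 bp. The longest exon, exon 326 with 17106 bp, held 0, 4 and 21 peaks, while exon 358, with 5609 bp, held 3, 4 and 5. The antisense record TTN-AS1 contained 14, 32 and 197 of the TTN summits, so RNA of either strand could have given them.

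NEB had best folds of 3.76, 4.14 and 2.63 (3.51 ± 0.785, SD, n = 3). Of its exonic summits 50.0%, 54.5% and 50.0% lay past the midpoint. Of 124 merged NEB regions 14 were found in every list, the highest number of any member, with mean folds between 1.80 in exon 109 and 2.95 over exon 150 and intron 149. Exon 16 gave summits within 7 bp (folds 2.21, 1.71 and 2.48) and exon 147 within 12 bp (2.16, 1.91 and 1.82). Part of NEB is a repeated block, and the regions in exons 97, 93 and 89, all found in every list, each have 2 further copies in NEB at 100% identity over 264, 279 and 227 bp. Reads of these copies cannot be assigned to 1 of them by sequence alone; of all 124 NEB regions 17 have such a copy at 95% identity or more over at least 80 bp.

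**Figure D3:**
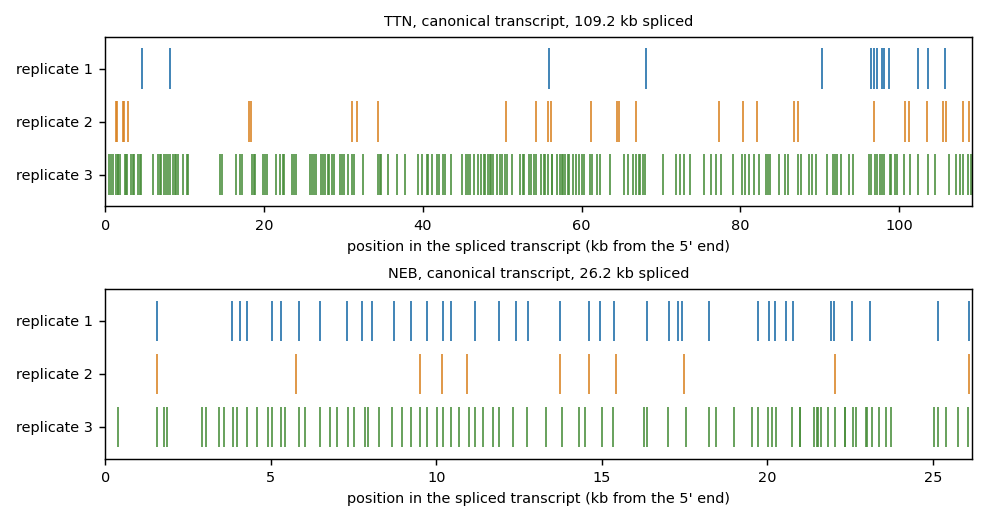
Each vertical line is a peak summit in an exon of TTN (top) or NEB (bottom), placed along the spliced canonical transcript in kb from its 5′ end, with 1 row for each DDX5_IP list. TTN lines crowd toward the 3′ end in replicate 1 and cover the transcript in replicate 3, and NEB lines spread over the whole length in replicates 1 and 3.

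Desmin links myofibrils to each other and to the membrane. DES (chr2:219418377-219426735, plus strand) had 6, 5 and 6 peaks in 2489 bp of exon, with best folds of 2.95, 3.37 and 8.54 (4.95 ± 3.12, SD, n = 3). Exon 1 was covered in every list with folds of 3.97, 3.75 and 8.54 and summits within 62 bp, exon 4 with 2.17, 2.24 and 2.53 and summits within 23 bp, and the 3′ UTR with 1.79, 1.41 and 3.31. Replicate 3 was the high value in exon 1, and the lists differed little in exon 4. ACTN2, the actin crosslinker of the Z-disc, had 1 peak in replicate 3 (fold 2.58, 3′ UTR), and so did MYBPH, a myosin-binding protein (fold 3.93, intron 7). CKM, the muscle creatine kinase, had 0 in every list.

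With any peak counted, genes of the membrane, calcium release and synapse had the largest share in every list among the roles. It was 7 of 10, against 25.8% of all protein-coding genes. With q under 1e-05 in every list only BIN1, DMD, CAV3 and SGCA of these were left, and with a fold of at least 4 only BIN1 and SGCA. The ranking of the roles was not tested. BIN1, which shapes the T-tubule membrane, had a single peak in each list, at the same 3′ UTR place (chr2:127048064-127048580) with summits within 19 bp. Its folds were 5.23, 6.11 and 5.47 (5.60 ± 0.451, SD, n = 3), a narrower spread than that of XIRP1, TPM2 or DES. Each BIN1 peak carried a combination of fold and p-value that at least 10 peaks of its list also had. SGCA, alpha-sarcoglycan of the dystrophin complex, had 5, 6 and 5 peaks with best folds of 6.14, 4.97 and 8.37 (6.49 ± 1.73, SD, n = 3). Of these peaks 1, 3 and 3 also had their summit in another gene, and 2, 2 and 0 lay outside the canonical transcript. The best SGCA peaks were intronic, and a second region, a 3′ UTR of another transcript inside intron 6 of the canonical one, had folds of 4.15, 4.33 and 4.10 with summits within 12 bp. RYR1, the calcium release channel, had 4, 5 and 13 peaks with best folds of 2.37, 7.70 and 6.15, but these best peaks lay at different places. Exon 50 was the 1 RYR1 region of every list (3.27, 2.59 and 1.97). Like the BIN1 peaks, every RYR1 peak carried a combination of fold and p-value that at least 10 peaks of its list also had. CACNA1S, the voltage sensor that opens RYR1, had 0 peaks.

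CAV3, the muscle caveolin, had 4, 12 and 17 peaks, of which 3, 8 and 11 lay outside its canonical transcript, since the gene record includes a long read-through form that runs over OXTR and RAD18. The CAV3 3′ UTR was covered in every list with low folds of 1.86, 2.07 and 1.89. DMD, dystrophin, the largest gene body of the set at 2241933 bp, had 2, 5 and 2 peaks and no region in every list. Its peaks in replicates 1 and 3 with the highest −log10 q lay over the pseudogene TBCAP1 in intron 1 (folds 3.17 and 4.11), which matches TBCA at 98.953% over 191 bp. These summits are therefore uncertain for DMD. MYMK, the membrane fusogen myomaker, had 0, 1 and 5 peaks, and its exon 2 was covered in replicates 2 and 3 (3.37 and 3.59).

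The acetylcholine receptor of the neuromuscular junction swaps its fetal gamma subunit for an adult one. CHRNG, the gamma subunit, had 0, 4 and 3 peaks, with best folds of 5.29 in replicate 2 and 4.30 in replicate 3. CHRND, the delta subunit, had 2, 3 and 4 peaks with best folds of 1.89, 4.33 and 2.23. Its exon 6 was covered in every list (2.75, 4.33 and 3.61), as was its 3′ UTR (1.89, 2.37 and 2.23). CHRNA1, the ligand-binding alpha subunit, had 1, 6 and 6 peaks, with low best folds of 1.64, 2.21 and 1.74 (1.86 ± 0.303, SD, n = 3) and no region in every list. All CHRNA1 summits also lay in an overlapping record, ENSG00000236449.

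**Figure D4:**
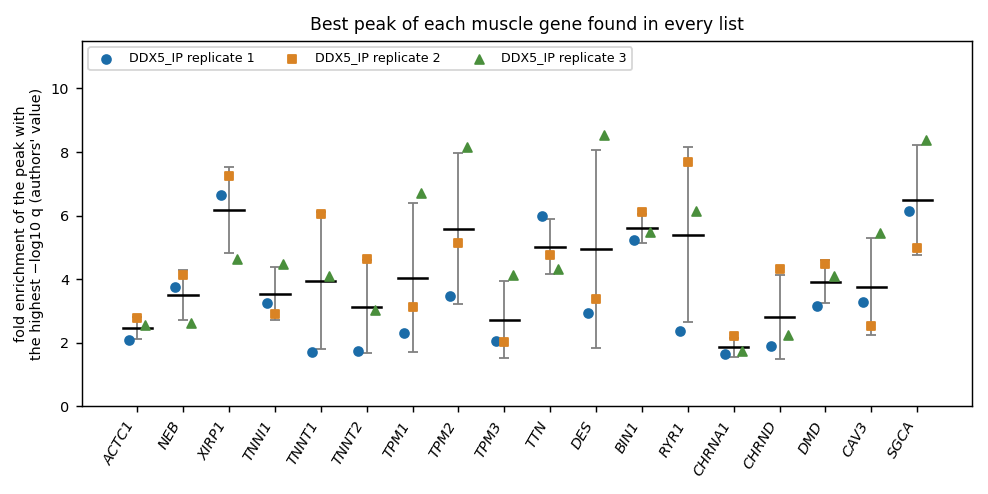
The authors' fold enrichment of the peak with the highest −log10 q in each list is plotted for the 18 muscle genes found in every list, with the mean (black line) and SD over 3 lists (grey bar). XIRP1, TTN, BIN1 and SGCA lie above 4 in every list, whereas RYR1, DES, TPM1 and TPM2 spread widely between lists.

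Few places were shared by all lists even in genes that were. Merging overlapping intervals gave 523 regions in the 29 genes, of which 49 (9.37%) were found in every list, against 14.2% over all protein-coding genes; 121 were found in 2 lists and 353 in 1. TTN and NEB supplied 344 of the 523, and without both genes 31 of 179 regions (17.3%) were in every list (both were left out after their counts were known). Of the 18 genes 15 had at least 1 such region, and the exceptions were TNNT1, CHRNA1 and DMD. Within the 49 regions the summits of the lists spanned a median of 90 bp, and in 15 regions at most 30 bp. All summits were coding in 21 of these regions, in the 3′ UTR in 13, intronic in 3 and in the 5′ UTR in 1, with 11 mixed.

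Summits of the muscle genes lay in coding sequence more often than those of other protein-coding genes in every list, at 58.6%, 43.3% and 68.6% against 37.1%, 28.2% and 49.4%. The mean difference was 18.6 ± 3.27 percentage points (SD, n = 3 lists; exact two-sided sign-flip test, p = 0.25, the smallest that 3 lists allow). It rested on TTN and NEB: without them the shares were 36.7%, 29.8% and 33.1%, and the mean difference turned to −5.04 points (exact test, p = 0.75). With summits that lay in no other gene it was 8.21 points (exact test, p = 0.25). The 3′ UTR held 18.8%, 13.4% and 6.92% of the muscle gene summits, against 42.9%, 31.2% and 25.9% of the others, a mean difference of −20.3 ± 3.39 points (exact test, p = 0.25). Without TTN and NEB that difference was −7.07 points. Introns held 21.1%, 38.9% and 21.2%, against 17.2%, 37.3% and 20.6%, a difference of 2.01 ± 1.71 points (exact test, p = 0.25), and 9.70 points without TTN and NEB.

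**Figure D5:**
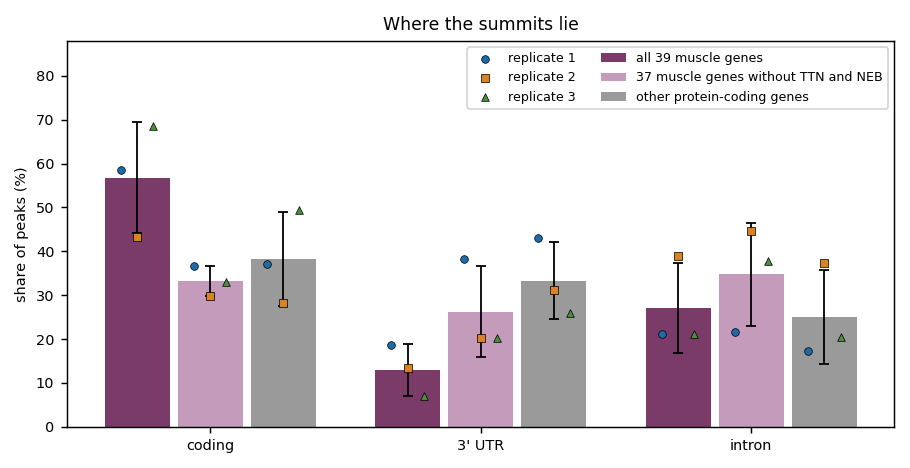
Bars give the mean share of peak summits in coding sequence, 3′ UTRs and introns in %, with the SD over 3 DDX5_IP lists and a point for each list, for all 39 muscle genes, for the 37 left without TTN and NEB, and for other protein-coding genes. The mean coding share of the muscle genes is 56.8%, that without TTN and NEB 33.2% and that of other genes 38.2%.

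The median fold of muscle gene peaks was 2.36, 2.67 and 2.49, against 2.62, 3.18 and 2.90 in other protein-coding genes. This was lower in 3 of 3 lists, by a mean log2 difference of −0.21 ± 0.05 (SD, n = 3 lists; exact sign-flip test, p = 0.25), and by −0.10 without TTN and NEB. Median widths of the muscle gene peaks were 172, 196 and 216 bp, against 175, 197 and 189 bp. Per kb of exon the muscle genes with a peak had a median of 0.555, 0.808 and 1.32 peaks, against 0.402, 0.359 and 0.587 over all protein-coding genes with a peak. These values count all peaks of the gene body, intronic ones included, and are not a density of exonic peaks. Coding summits of the muscle genes other than TTN and NEB were rich in G and C, with a median of 60.4%, 59.4% and 57.4% in the 50 bases on either side. TTN and NEB were low, at 47.5%, 45.5% and 44.6%, and other protein-coding genes lay between them, at 52.5%, 52.5% and 50.5%. In 3′ UTRs the muscle genes had 54.0%, 49.5% and 52.5%, against 44.6%, 45.5% and 45.5%; no test was made of base composition.

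Muscle genes outside the set were examined through a list of 75, of which 21 (28.0%) had a peak in every list, against 25.8% of all protein-coding genes, and 43 (57.3%) in at least 1, against 51.7%. Both shares were near those over all protein-coding genes. MUSK, the receptor kinase that clusters acetylcholine receptors, ranked first by −log10 q, with 10, 21 and 19 peaks and best folds of 7.01, 3.65 and 5.72 (5.46 ± 1.70, SD, n = 3). DAG1, dystroglycan, had 6, 7 and 3 peaks with best folds of 3.22, 4.49 and 3.79, all coding. Next by that rule came STAC3, which couples the voltage sensor to RYR1, SSPN of the dystrophin complex, ATP2A2, a calcium pump of the sarcoplasmic reticulum, CDH15, a cadherin of myoblasts, FLNC, an actin crosslinker, and DYSF, which repairs the membrane. Of 5 further myosin heavy chains, MYH1, MYH4, MYH6 and MYH13 held 0 peaks in every list, and MYH7B had 0, 2 and 2 peaks with best folds of 3.21 in replicate 2 and 3.93 in replicate 3. The light chain MYL11 had 1 peak, in replicate 3. No list held a peak in the light chains MYL2 and MYL3, fast and cardiac troponin I (TNNI2 and TNNI3), ACTN3, TCAP, MYOT, CASQ1, CASQ2 and MB.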

How the data were processed

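Peak lists of 3 DDX5_IP samples in the narrowPeak layout were used, 1 list per sample. Per the submitters' processing notes, MACS2 2.2.7.1, STAR 2.6.1d, cutadapt 1.11, SAMtools 1.10, FastQC 0.11.8 and bcl2fastq 2.20 are named with the build GRCh38; parameters and the control library are not given in the sources used here. Libraries were unstranded, per the labels' protocols. The deposited values were a fold enrichment (ratio) at each summit, a −log10 p-value and −log10 q-value, and a score by the authors that was not used. Sequencing depth is unknown. The sequence of 1 further region is not reported here.

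Summits were assigned to GENCODE v44 gene bodies with Python 3.11.15 and numpy 2.4.6. A summit was called coding, then UTR, non-coding exon or intron over all transcripts of the gene; "other protein-coding genes" leaves out the muscle genes. Summits that share an interval counted once, at the highest −log10 q. Regions are unions of intervals that overlap by 1 bp or more. Copies were searched with blastn 2.17.0 (95% identity over 80 bp), and sequence was read with samtools 1.23.1. Assignment and merging were tested on simulated peaks. The 3 lists served as replicates in exact sign-flip tests, which cannot give a p below 0.25. With 3 differences of the same sign p is 0.25 whatever their size or spread, so it does not measure the spread between these samples.

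All 39 genes were named, with list values where every list held a peak; of the wider list the 8 with the highest mean percentile of −log10 q were named. Members and gene lists were chosen with earlier results of these data known. Alternatives covered thresholds, list length, overlapping genes, exonic summits, leaving out peaks with a fold and p-value combination found 10 or more times in their list (repeated values), region matching and each list left out.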

Additional observations from a re-analysis of the deposited data

How the results depend on the processing

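The count of 18 muscle genes in every list fell to 5 with a fold of at least 4, to 12 with q under 1e-05 (without ACTC1, TNNT1, TPM1, RYR1, CHRNA1 and CHRND), to 13 without peaks of repeated values (without TNNT1, TPM1, BIN1, RYR1 and DMD), to 14 with summits in no other gene (without ACTC1, TTN, TNNT2 and CHRNA1) and to 17 with exonic summits (without TNNT1); it was 18 with equal list lengths and 18 to 21 with 1 list left out. The 49 regions of every list became 21 with q under 1e-05, 4 with a fold of at least 4, 23 without repeated values, 18 with a reciprocal overlap of 50%, 30 with summits within 100 bp, 31 without TTN and NEB, and 56 to 110 with 1 list left out (106 without replicate 1 and 110 without replicate 2). The coding difference of 18.6 points turned to −5.04 without TTN and NEB, which held most coding summits, was 8.21 with summits in no other gene (exact test, p = 0.25), and was 2.15 with a fold of at least 4 (exact test, p = 1). The intron, 3′ UTR and fold differences kept their sign under every alternative run but changed in size: the intron difference of 2.01 points was 11.1 with a fold of at least 4, 9.47 with summits in no other gene, 9.70 without TTN and NEB, 4.83 with q under 1e-05, 4.99 without repeated values and 1.06 to 2.72 with 1 list left out, that of the 3′ UTR (−20.3 points) was −7.07 without TTN and NEB, and the log2 fold difference of −0.21 was −0.03 with a fold of at least 4 and −0.10 without TTN and NEB. The feature shares were not recomputed for exonic summits alone. Of 174 recounts of the lists that held each of the 29 genes with a peak, under alternatives that can only remove peaks, 59 gave a lower number; the cause was not tested. No paired analysis was possible because the INPUT samples that share replicate numbers with the DDX5_IP samples were not analysed here. Unknown depth limits what a gene without a peak can show.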
